A study of Mus musculus with 12 samples.

Results

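The DNA replication machinery was examined as a module of 49 genes, chosen by name from the textbook steps of replication, and 49 of 49 were present among the 13886 genes of the count matrix. Licensing, the loading of the helicase at origins, was represented by 15 genes, helicase activation by 6, elongation by 20, and a remaining class by 8 genes for fork protection, nucleotide supply and chromatin assembly. The cells were B cells and plasma cells (PC) sorted from the draining lymph node after immunisation of 3 mice with the hapten-carrier antigen NP-KLH, given in Sigma Adjuvant System. All mice were given tamoxifen by gavage and were analysed 5 days afterwards, at day 16 of the primary response, so that every group shares this treatment. Live IgD-negative eYFP-positive cells were sorted, and PC were loaded apart from the other B cells for droplet-based 5' single-cell RNA sequencing, with hashing antibodies to CD45 marking the mouse of each cell. The sources used here do not give the Cre driver behind the eYFP label, the strain or the age of the mice, and no untreated group was analysed here.

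The origin recognition complex (Orc1 to Orc6) marks the places where replication can start, and Cdc6 and Cdt1 load the Mcm2 to Mcm7 helicase there, a step called licensing that geminin (Gmnn) blocks by binding Cdt1. Mcm10, Cdc45 and the GINS proteins then turn the loaded helicase into an active one, and the DNA polymerases, the sliding clamp Pcna, its loader Rfc and the single-strand binding protein Rpa copy the strands. In the germinal center, B cells divide in the dark zone and are selected in the light zone, and many of the genes above are targets of E2F transcription factors, which act at the entry into S phase.

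Promoter sequences of RefSeq (build GRCm38.p6) were available for 40 of the 49 genes. The 250 bases before each start were searched on both strands for the E2F words TTTGGCGC, TTTCGCGC, TTTCCCGC and TTTGCCGC, which can overlap each other. A word was present in 10 of the 40 genes (25%), in 6 of 13 licensing genes and in 2 of 17 elongation genes, against 583 of 27025 genes (2.16%) in the whole table. The 10 were Cdc6, Gins3, Hells, Mcm5, Mcm6, Mcm7, Orc1, Orc3, Pola1 and Rfc3. The windows of 5 genes are shown because they span the range of the results below, with the E2F words in capitals. Mcm5 and Mcm6 hold more than 1 word, Pola1 holds a word and was called between dark and light zone in both phases tested, Orc3 holds a word but varied little over the cell cycle, and Mcm3 holds none although its difference between S and G1 lay between those of Mcm5 and Mcm6.
Mcm5 (+ strand, chr8:75109259-75109508): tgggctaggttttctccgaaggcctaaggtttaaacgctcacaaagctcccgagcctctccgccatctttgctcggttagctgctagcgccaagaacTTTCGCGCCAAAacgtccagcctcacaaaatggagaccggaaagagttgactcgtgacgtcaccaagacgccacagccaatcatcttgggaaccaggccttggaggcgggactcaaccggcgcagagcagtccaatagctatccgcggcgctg
Mcm6 (- strand, chr1:128359706-128359955): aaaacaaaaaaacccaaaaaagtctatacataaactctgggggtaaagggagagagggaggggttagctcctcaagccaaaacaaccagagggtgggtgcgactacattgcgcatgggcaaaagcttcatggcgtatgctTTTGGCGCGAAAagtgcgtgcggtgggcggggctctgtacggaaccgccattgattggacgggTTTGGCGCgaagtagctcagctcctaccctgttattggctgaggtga
Pola1 (- strand, chrX:93632156-93632405): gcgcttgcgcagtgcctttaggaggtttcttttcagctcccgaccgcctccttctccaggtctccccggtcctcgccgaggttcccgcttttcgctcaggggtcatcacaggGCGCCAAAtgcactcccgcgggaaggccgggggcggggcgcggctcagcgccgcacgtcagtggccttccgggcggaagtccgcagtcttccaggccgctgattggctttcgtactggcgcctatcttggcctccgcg
Orc3 (- strand, chr4:34614943-34615192): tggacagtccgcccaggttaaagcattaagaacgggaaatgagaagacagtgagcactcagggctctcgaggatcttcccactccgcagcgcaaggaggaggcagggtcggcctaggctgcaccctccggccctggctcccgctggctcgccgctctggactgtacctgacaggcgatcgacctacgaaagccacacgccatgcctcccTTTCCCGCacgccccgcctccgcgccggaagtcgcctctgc
Mcm3 (- strand, chr1:20820313-20820562): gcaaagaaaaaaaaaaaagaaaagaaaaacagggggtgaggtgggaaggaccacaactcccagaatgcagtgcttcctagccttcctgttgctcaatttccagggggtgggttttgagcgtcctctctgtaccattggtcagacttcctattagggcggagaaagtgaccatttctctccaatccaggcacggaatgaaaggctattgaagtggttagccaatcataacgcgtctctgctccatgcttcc
A match is a description of these letters and no evidence of binding, and absence says only that none of the words lies in the window. No promoter entry was found for Gins1, Gins2, Gins4, Gmnn, Mcm4, Pole, Prim2, Rfc2 and Tipin.

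The matrix held 6000 cells with a median of 7052.5 UMIs (unique molecular identifiers, each counting 1 captured transcript). The authors' annotation gave 3040 dark zone (DZ) cells, 2213 light zone (LZ) cells, 165 LZtoDZ cells, 396 preMem cells, 49 prePC and 137 PC, and each cell carried the authors' call of G1, S or G2M. Several markers followed the names. Cxcr4 was at 85.6 CPM (counts per plain total of all UMIs of the state) in DZ against 36.2 in LZ. Cd83 was at 476 in LZ against 101 in DZ, Ccr6 at 226 in preMem, and Jchain at 20890 in PC. Others did not. The dark zone gene Foxp1 was at 132 in DZ but 274 in preMem. In LZtoDZ the 3 dark zone genes summed to 138, against 355 in LZ, and the 4 light zone genes to 633, against 1243. In prePC the 5 memory genes summed to 837, against 1196 in preMem, and the listed myeloid genes to 172. Its Prdm1 was at 28.4 against 29.6 in PC, and its Sdc1 at 1.78 against 84.2. For single members CPM are taken over the total of the tested genes times a TMM factor (trimmed mean of M values, which aligns the bulk of genes between sums), and a factor below 1 raises them. The factors were 0.404, 0.432 and 0.562 in PC in G1, 0.896 to 0.995 in PC in S and 1.07 to 1.11 in DZ and LZ in G1. Results under equal totals, with no factors, were added after the data had been seen and are given where they differ. LZtoDZ is a range of the authors' activation score that begins at 0.581. Within 0.02 of that value lay 32 of its 165 cells above and 39 DZ or LZ cells below. The preMem cells begin at 0.78 of the authors' memory score. Within 0.02 of it lay 40 of 396 preMem cells above and 42 DZ or LZ cells below. DZ begins at 0.5 of the authors' zone score, with 94 LZ cells at or above that value. Within 0.02 of it lay 153 of 3040 DZ cells above and 262 LZ cells below. Median UMIs were 4119 in preMem, 6258 in LZ, 7875 in DZ, 19103 in LZtoDZ and 24018 in PC. The cell barcodes fell into 2 series of 5878 and 122 cells with 0 barcodes in common, and 117 of the 137 PC were in the smaller one, so that state and capture cannot be told apart for PC. The sources used here do not give the genes behind the phase calls, which may include members, so differences between phases are described and not tested. Genes behind the activation, memory and zone scores are not given either, and may also include members. Tests between LZtoDZ, preMem, DZ and LZ therefore compare cells split by scores that members may have helped to set. When phase was called again from 22 S genes and 52 G2/M genes outside the module, 45.9% of the 1832 cells called S kept that call, 442 became G1 and 550 became G2M.

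Transcripts of the module made up 0.936% ± 0.0145 of all UMIs in DZ cells in S (SD, n = 3 mice) and 0.905% ± 0.0112 in LZ cells in S. In G1 the shares were 0.270% ± 0.00845 in DZ and 0.257% ± 0.00742 in LZ, and in G2M they were 0.503% ± 0.0231 and 0.550% ± 0.0114. The shares of the 2 zones lay close together in each phase, while those of the phases lay far apart. LZtoDZ cells in S had a share of 0.823% ± 0.0190 and PC in S of 0.587% ± 0.0398. Outside the cycling germinal center states the share was lower, with 0.199% ± 0.00878 in preMem in G1, 0.149% ± 0.0182 in prePC in G1 and 0.0479% ± 0.0131 in PC in G1. Shares and absolute counts ranked the states differently. A DZ cell in S held 96.0 ± 2.6 UMIs of the module and an LZ cell 75.7 ± 5.9, whereas an LZtoDZ cell in S held 174 ± 11.1 and a PC in S 181 ± 13.3. Total UMIs per cell differed between these states as given above, and their part in this was not tested.

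**Figure D1:**
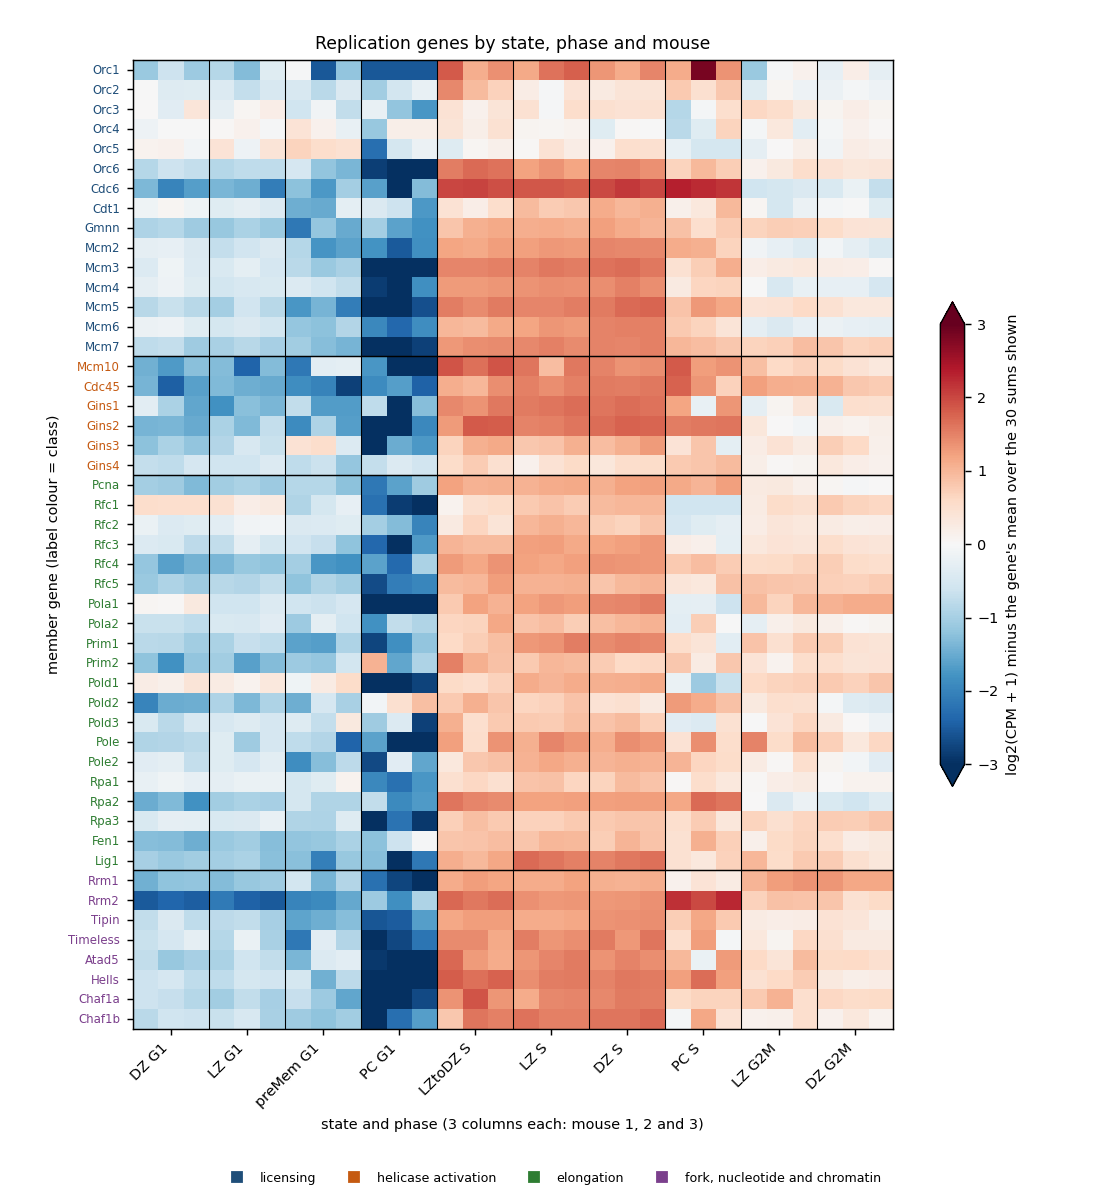
Heat map of the 49 genes (rows, labels coloured by class) in sums of cells by state and phase (3 columns each for mouse 1, 2 and 3), as log2(CPM + 1) minus the mean of the gene over the 30 sums shown. Blocks of S cells are red in nearly every row in all 3 mice, G1 blocks are blue, and PC in G1 hold the darkest blue, with Pold2, Prim2 and Rrm2 standing out against the column under this TMM scaling, which the text sets beside equal totals.

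Licensing genes divided into a strongly phase-dependent part and a part that varied less. Cdc6, the loader of the helicase, was measured in DZ cells at 8.5, 5.1 and 6.7 CPM in G1, at 95, 105 and 96 CPM in S and at 16.6, 20.1 and 13.8 CPM in G2M in mice 1, 2 and 3, without overlap between S and the other phases. Its log2 difference between S and G1 was 3.70 ± 0.387 (SD, n = 3) in DZ and 3.49 ± 0.363 in LZ. The helicase subunits moved together. Mcm3 stood at 122, 148 and 120 CPM in G1 and at 504, 518 and 489 CPM in S in DZ, and the S minus G1 differences of Mcm2 to Mcm7 ran from 1.70 (Mcm4) to 2.44 (Mcm5) in DZ and from 1.78 (Mcm6) to 2.39 (Mcm7) in LZ. Of the origin recognition complex, Orc1 and Orc6 had differences of 2.24 and 2.17 in DZ, whereas Orc2, Orc3, Orc4 and Orc5 had 0.60, 0.45, -0.06 and 0.32. In DZ the smaller rises of Orc2 (means of 30.8 CPM in G1 and 46.8 in S) and Orc3 (33.4 and 45.1) still left S above the other phases without overlap. In LZ their phases overlapped. Orc4 was measured in DZ at 28.2, 31.2 and 31.3 CPM in G1, at 24.3, 32.2 and 31.1 CPM in S and at 30.4, 34.5 and 32.2 CPM in G2M, and the 3 phases overlapped. Cdt1, which licensing needs and which is destroyed as protein in S phase, was higher in S by 1.12 in DZ and 1.18 in LZ. Its inhibitor Gmnn was higher by 2.07 and 2.15, and stayed at 188, 171 and 168 CPM in DZ in G2M against 66.6, 69.6 and 60.4 CPM in G1.

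The genes of helicase activation were low in G1 and had a median S minus G1 difference of 2.73 in DZ and 2.72 in LZ. Cdc45, which joins the helicase to GINS, was at 10.2, 4.3 and 8.4 CPM in DZ in G1 and at 85.3, 83.4 and 86.0 CPM in S. Gins2 had a difference of 3.15 in DZ and 2.52 in LZ, while Gins4 had 1.13 and 0.92 and was the flattest of the 4 GINS genes. Mcm10 rested on 4.5, 3.6 and 5.3 CPM in DZ in G1, so its difference of 2.87 carries a wide counting error.

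Elongation genes spanned a broader range than their median of 1.88 in DZ and 1.80 in LZ conveys. Rpa2, a subunit of the single-strand binding protein, was higher in S by 2.79 in DZ and Rfc4 by 2.74, but their partners Rpa1 and Rfc1 by 1.02 and 0.48. The polymerase subunits also differed. Pold1, the catalytic subunit of the lagging strand polymerase delta, was at 78.5, 74.7 and 87.8 CPM in DZ in G1 and at 142, 144 and 147 CPM in S, a log2 difference of 0.84, against 2.04 for its partner Pold2. Pcna was at 45.1, 48.7 and 43.8 CPM in G1 and at 194, 205 and 210 CPM in S in LZ, and the matrix also holds its pseudogene Pcna-ps2, which can share its reads. Lig1, the ligase that seals Okazaki fragments, had a difference of 2.62 in DZ and 2.68 in LZ.

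In the remaining class, Rrm2, the regulated subunit of ribonucleotide reductase, had the largest S minus G1 difference of the 49 genes in both zones, 3.79 ± 0.0868 in DZ and 3.69 ± 0.187 in LZ. It stood at 28.8, 32 and 29.9 CPM in DZ in G1, at 423, 425 and 443 CPM in S and at 305, 234 and 253 CPM in G2M. Its partner Rrm1 was the exception in timing in DZ. There it was at 247, 242 and 252 CPM in S and at 294, 264 and 264 CPM in G2M. All 3 mice were higher in G2M, without overlap. In LZ the means of Rrm1 were 260 CPM in S and 273 CPM in G2M, and the mice of these phases overlapped. Tipin and Timeless, which form the fork protection complex, had differences of 2.01 and 1.99 in DZ, and Hells, a chromatin remodeler, had 2.16.

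Over the module, the median S minus G1 difference was 2.07 in DZ and 1.97 in LZ, and it exceeded 1 in 43 and 42 of the 49 genes. S was the phase with the highest level for 47 genes in DZ, 45 of them with all 3 mice above every mouse of the other phases, and for 46 genes in LZ, 42 of them so. With phases called without members the medians were 1.69 and 1.64, which is smaller than with the deposited calls and still above 0. Genes with and without an E2F word had like medians, 2.18 against 2.01 in DZ and 1.95 against 1.99 in LZ, over 10 and 30 genes.

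**Figure D2:**
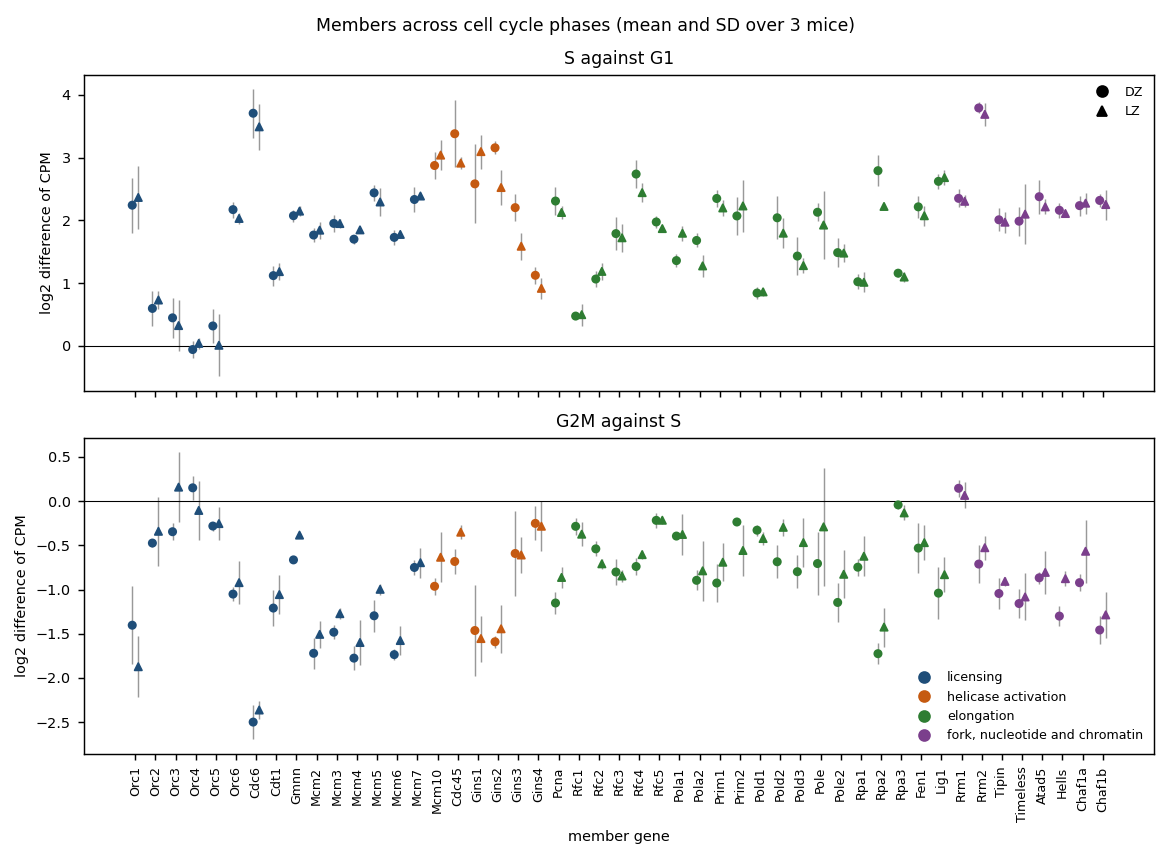
Log2 difference of CPM between S and G1 (top) and between G2M and S (bottom) for each of the 49 genes in DZ (circles) and LZ (triangles), coloured by class, with the mean and SD over 3 mice. Orc2 to Orc5, Rfc1 and Pold1 lie lowest in the top panel and Rrm2 and Cdc6 highest, and in the bottom panel Mcm2 to Mcm6 lie below every elongation gene but Rpa2.

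After S phase the medians of the classes differed, while their ranges overlapped. From S to G2M the median difference was -1.21 for licensing and -0.72 for elongation genes in DZ, and -0.997 and -0.58 in LZ. Single genes in DZ ran from -2.50 to 0.15 for licensing and from -1.73 to -0.04 for elongation. Mcm6 went from 643, 657 and 649 CPM in S to 202, 193 and 189 CPM in G2M in DZ, which lies within its G1 values of 203, 207 and 177 CPM. Pola1, the catalytic subunit of the primase-polymerase, went from 138, 141 and 146 CPM to 105, 109 and 109 CPM and stayed above its G1 values of 51.9, 51.0 and 61.5 CPM. The helicase subunits differed among themselves. In DZ the G2M minus G1 difference was 1.58 for Mcm7, -0.01 for Mcm6, 0.04 for Mcm2 and -0.08 for Mcm4. Mcm5 and Mcm3 were also higher in G2M than in G1 in DZ, at means of 184 against 83.1 CPM and 180 against 130 CPM. In LZ Mcm5 was at 201 against 81.9 CPM. Mcm7 overlaps exons of Ap4m1 and Cops6 on the opposite strand, and the sources used here do not say whether the counting used strand.

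Summing CPM over the 15 licensing genes and dividing by the sum over the 20 elongation genes gave 1 ratio per mouse, state and phase. UMI sums of different genes need not have the same capture, so the ratio is compared between groups and its own level is not read. In DZ the log2 ratio was -0.31, -0.19 and -0.35 in G1, 0.08, 0.04 and 0.01 in S and -0.60, -0.55 and -0.64 in G2M, in mice 1, 2 and 3. In LZ it was -0.50, -0.38 and -0.48 in G1, -0.10, -0.09 and -0.08 in S and -0.55, -0.59 and -0.57 in G2M. S was thus above G1 in each mouse of both zones, by 0.33 ± 0.0861 in DZ and 0.36 ± 0.0603 in LZ (SD, n = 3), and DZ was above LZ in each mouse, by 0.14 ± 0.0447 in S and 0.17 ± 0.0347 in G1. With a mean of log2(CPM + 1) over genes in place of sums the S minus G1 difference turned to -0.14 in DZ and -0.06 in LZ. Without Mcm2 to Mcm7 it was 0.07 and 0.05, and without the most abundant gene of each class 0.29 and 0.33. With phases called without members it was smaller, at 0.18 in DZ and 0.19 in LZ. The DZ minus LZ difference kept its sign under the alternatives run, at 0.08 to 0.16 in S and 0.10 to 0.19 in G1.

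In the other states the ratio in G1 was 0.31, 0.04 and 0.21 in LZtoDZ, from 5, 7 and 5 cells, above every DZ and LZ sum in G1. It was -0.41, -0.62 and -0.81 in preMem, -0.88, -0.21 and -0.74 in prePC and -0.76, -0.98 and -0.79 in PC. PC lay below LZ in G1 in each mouse, by 0.39 on average (SD 0.187), whereas the preMem difference of -0.16 ± 0.221 and the prePC difference of -0.15 ± 0.290 were smaller than their spread, each with 1 mouse above LZ. Without Mcm2 to Mcm7 the direction turned, and PC lay above LZ by 0.44. In S, PC had ratios of 0.10, 0.05 and 0.11 and LZtoDZ of 0.11, 0.04 and 0.09, in each case above the LZ values.

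**Figure D3:**
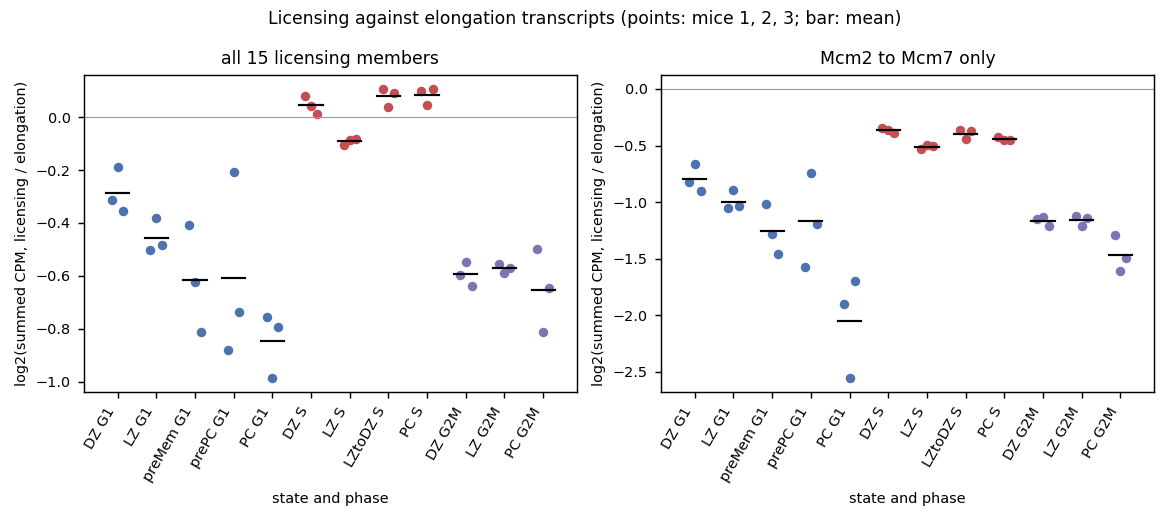
Log2 ratio of the summed CPM of licensing genes to the summed CPM of the 20 elongation genes, by state and phase, for all 15 licensing genes (left) and for Mcm2 to Mcm7 (right). Points are mice 1, 2 and 3 and bars their mean, and in DZ, LZ and PC the S sums lie above the G1 and G2M sums drawn for the same state in both panels.

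The comparison of DZ with LZ asked whether cells of the zone of division carry more replication transcripts than cells of the zone of selection when the phase is held equal. In S cells 1 of 49 genes rose in DZ and 0 fell, against 8.99% of all 9374 genes tested (4.81% higher, 4.18% lower). That gene was Pola1, at 138, 141 and 146 CPM in DZ and 117, 125 and 121 CPM in LZ in mice 1, 2 and 3, so the zones did not overlap. Its log2 fold change was 0.24 ± 0.0722 (SE, adjusted p = 0.037), and the call was lost under 12 of 15 alternatives, among them equal totals (0.21) and the omission of mouse 1 (0.23), 2 (0.27) or 3 (0.18). The 49 fold changes ran from -0.34 (Pold2) to 0.25 (Mcm6), with a median of 0.07 against 0.01 over all genes. Mcm6 was at 643, 657 and 649 CPM in DZ and 523, 574 and 551 CPM in LZ, also without overlap, but did not pass (adjusted p = 0.157). With immunoglobulin transcripts left out before scaling, 6 members passed, with the share of all genes in that fit not given here.

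In G1 the same comparison called 1 gene higher and 1 lower, against 12.4% of all genes (6.39% higher, 5.98% lower). Pola1 rose again, from 32.8, 32.6 and 37.3 CPM in LZ to 51.9, 51.0 and 61.5 CPM in DZ, by 0.67 ± 0.0998 (adjusted p = 3.8e-05). Rpa2 fell, from 36.2, 38.1 and 37.0 CPM in LZ to 26.0, 29.3 and 20.7 CPM in DZ, by 0.57 ± 0.132 (adjusted p = 0.00471), and without mouse 3 its fold change was -0.42 with an adjusted p of 0.239, within a range of 0.000738 to 0.64 over the alternatives. Both G1 differences leave the zones without overlap. Whether the DZ to LZ difference itself differed between S and G1 was tested as an interaction, which called 0 of 49 members and 1 of 9374 genes (0.0107%) with edgeR. At an unadjusted p under 0.05 it held for 5 of 49 members. The share of all genes at that threshold is not given here, so no excess is read from this count. DESeq2 called 1 member.

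LZtoDZ cells, on their way back to the dark zone by the authors' name, were compared with LZ cells in S. Members may be among the unstated genes of the activation score that sets LZtoDZ apart. Calls here and in G1 are read with that limit. Of 49 genes 4 rose and 7 fell, against 32.7% of all genes in either direction (17.1% higher, 15.6% lower). With equal totals 2 rose and 10 fell, and the median of all genes went from -0.05 to -0.13. The share of all genes called there is not given here. Licensing genes gave 2 rises and 1 fall, and elongation genes 1 rise and 6 falls. Orc2 rose from 42.7, 35.7 and 49.3 CPM in LZ to 101, 71.3 and 59.4 CPM in LZtoDZ, by 0.79 ± 0.163 (adjusted p = 0.000415), with every LZtoDZ mouse above every LZ mouse. Orc6 rose by 0.38 ± 0.0823 (adjusted p = 0.000763), from 185, 205 and 181 CPM to 233, 262 and 250 CPM. Exons of Orc2 and Orc6 overlap those of Nif3l1 and Vps35 on the other strand, so their reads may be shared. Cdt1 fell by 0.44 and rested on mice 1 and 2, without which its fold changes were -0.40 and -0.37 and did not pass.

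The elongation genes that fell in LZtoDZ came from several complexes. Rfc2, a subunit of the clamp loader, fell from 425, 447 and 422 CPM in LZ to 255, 335 and 277 CPM, by 0.59 ± 0.11 (adjusted p = 0.000145). Lig1 fell from 334, 312 and 293 CPM to 218, 202 and 230 CPM, by 0.53 ± 0.149 (adjusted p = 0.00666), and these were the 2 of 11 calls that held under every alternative run. Prim1, the catalytic subunit of primase, fell by 0.66 ± 0.13 from 131, 135 and 153 CPM to 79.7, 86.9 and 98.2 CPM, and Pold1 fell by 0.50 from 145, 137 and 147 CPM to 99.7, 95.5 and 109 CPM, each without overlap. Their calls were lost when every cell was thinned to 2000 UMIs, which also moved the median of all genes in this comparison from -0.05 to -0.32. Rfc1 fell by 0.43, or by 0.42 without mouse 2, where it did not pass (adjusted p = 0.0982). The weaker changes of Rpa1 (-0.28), Rpa2 (0.25) and Rrm2 (0.32) were each lost when mouse 1 was left out, at -0.23, 0.20 and 0.30. Rpa1 did not pass without mouse 2 either (-0.26), Rrm2 without mouse 3 (0.30), and Rpa2 without mouse 2 (0.28) or 3 (0.29). Rpa2 (0.18) and Rrm2 (0.25) were also lost with equal totals.

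Only 5, 7 and 5 LZtoDZ cells were called G1. With sums of at least 5 cells, Orc2 (1.35 ± 0.385) and Pold2 (1.65 ± 0.411) rose and Rfc1 (-1.54 ± 0.268) and Rpa1 (-1.38 ± 0.465) fell against LZ, 4 of 49 genes against 15.5% of 9406 (4.9% higher, 10.6% lower). None of these 4 calls held under every alternative run: Orc2 was lost without mouse 2 (1.55) or 3 (1.12), Pold2 without mouse 2 (0.90), and Rpa1 without mouse 2 (-1.22) or 3 (-1.24) or with equal totals (-1.04), where 4 genes rose and 1 fell and the median of all genes was -0.16 in place of -0.49. Orc2, Rfc1 and Rpa1 were called in the same direction in S and in G1 of LZtoDZ, in sums that hold different cells of the same mice.

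**Figure D4:**
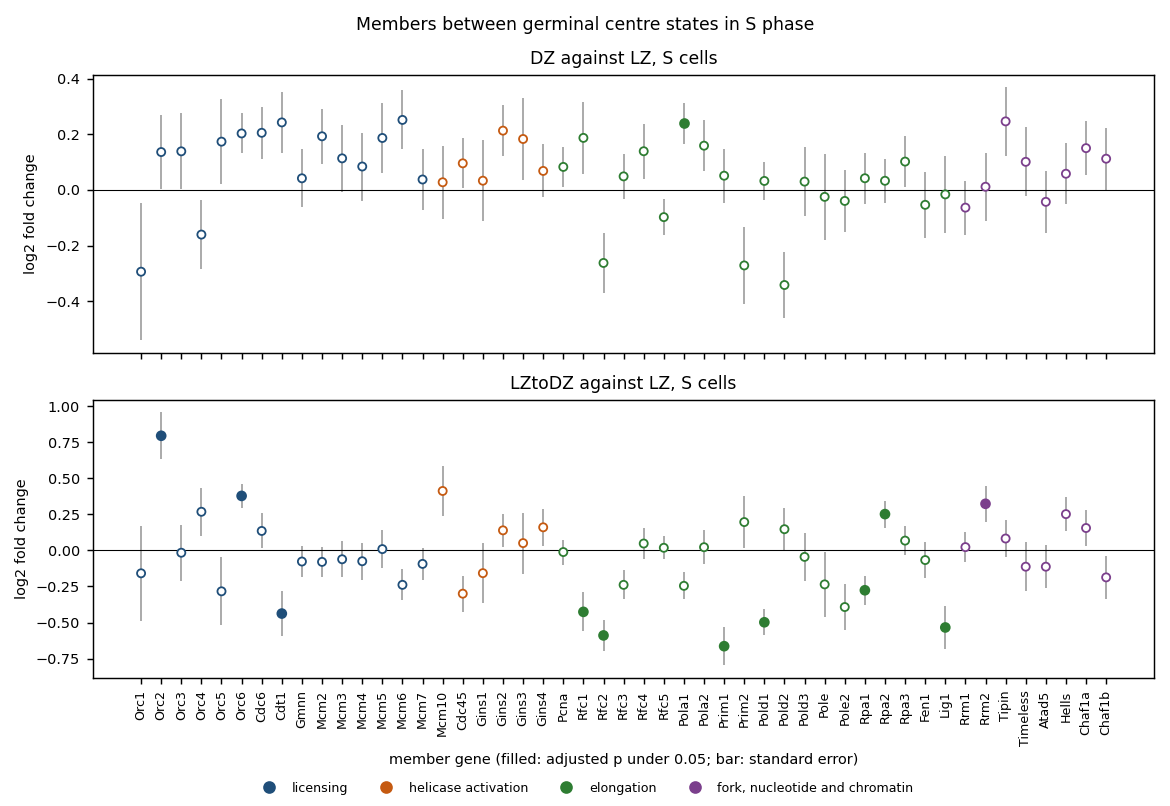
Log2 fold changes with standard errors of the 49 genes for DZ against LZ (top) and LZtoDZ against LZ (bottom) in S cells, coloured by class, filled where the adjusted p is under 0.05. In the top panel Pola1 is filled and all values lie between -0.34 and 0.25, and in the bottom panel 6 of the 7 filled points below 0 are elongation genes.

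The preMem state was compared with LZ in G1, where 96, 137 and 137 preMem cells were available. Members may be among the unstated genes of the memory score that sets preMem apart, and the calls are read with that limit. Of 49 genes 1 rose and 8 fell, against 19.5% of all genes in either direction, 10.2% higher and 9.33% lower. The median over the module was -0.25 against 0.01 over all genes. Of the 8 that fell, 5 were licensing genes and 4 were helicase subunits. Mcm5 fell from 70.1, 95.1 and 80.5 CPM in LZ to 42.2, 53.7 and 33.2 CPM in preMem, by 0.94 ± 0.177 (adjusted p = 0.000299). Mcm2 fell by 0.89 ± 0.163 from 59.5, 66.1 and 73.1 CPM to 53.9, 28.4 and 31.6 CPM, and without mouse 2 it did not pass (-0.72, adjusted p = 0.0535). Both genes were lower in each mouse, and their groups did not overlap. Mcm6 fell by 0.59 from 157, 168 and 154 CPM to 101, 96.3 and 123 CPM, and Mcm3 by 0.57, which was lost without mouse 2 (-0.42). Mcm4 and Mcm7 had -0.12 and -0.33 and did not pass, whereas with phases called without members they had -0.54 and -0.79 and passed (adjusted p = 0.015 and 0.000231).

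Rfc1 fell from 252, 209 and 221 CPM in LZ to 98.4, 126 and 155 CPM in preMem, by 0.84 ± 0.145 (adjusted p = 0.000103), and was the 1 of 9 calls that held under every alternative run. Rrm2 rose by 0.58 ± 0.164, from 38.4, 30.8 and 29.0 CPM to 42.2, 44.2 and 58.5 CPM, and without mouse 3 it was 0.33 and did not pass. It did not pass with equal totals either (0.49, adjusted p = 0.0658). There 0 members rose and 11 fell, with the share of all genes not given here. Pole2 (-0.87), Tipin (-0.60) and Gmnn (-0.47) were also called and were the least stable: Pole2 and Gmnn were each lost when any 1 mouse was left out, at -0.68 to -1.13 and -0.31 to -0.63, and Tipin without mouse 1 (-0.52) or 2 (-0.50). With phases called without members 20 genes fell and 0 rose. The share of all genes under those calls is not given here, so no change of the module is read from this count. In S the mice had 3, 10 and 3 preMem cells, and no test could be fitted.

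Plasma cells in G1 had the lowest share of module UMIs of the states in G1, although per cell they held 10.2 ± 2.31 module UMIs against 8.99 ± 0.463 in preMem in G1 (SD, n = 3). Compared with the mean of DZ and LZ in G1, 4 of 49 genes rose and 28 fell, against 47% of all genes in either direction, 22.6% higher and 24.4% lower. The median over the module was -1.37 against -0.18 over all genes, and -1.36 when Orc1, which had 0 UMIs in PC in G1, was put at no change because its 2.06 UMIs expected there lie under the floor of 3 UMIs. PC in G1 came from 30, 41 and 20 cells, 84 of the 91 in the smaller barcode series, and 6 of the 91 held 2 or more UMIs of genes of T, NK, myeloid, stromal or erythroid cells. With those cells left out 31 members were called. With equal totals 0 of 49 rose and 46 fell, against 896 genes higher and 6570 lower of all genes, and the median was -2.60 for the module and -1.42 for all genes.

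Among licensing genes 9 of 15 fell and 0 rose in PC. All 6 helicase subunits fell, with Mcm3 lowest at 13.8, 2.7 and 13.4 CPM in PC against 114 to 148 CPM in the 6 DZ and LZ sums, a log2 fold change of -3.79 ± 0.245 (adjusted p = 9.9e-13). Mcm7, Mcm5, Mcm4, Mcm6 and Mcm2 fell by 2.78, 2.60, 2.38, 1.73 and 1.70, each with all 3 PC sums below all 6 germinal center sums. Orc6 fell by 2.57 ± 0.302, to 10.4, 8.2 and 4.5 CPM. Orc3 (-0.97) and Orc5 (-1.002) were called near the threshold, and were lost without mouse 2 (-0.86 and -1.24) or 3 (-0.59 and -1.30), Orc5 also without mouse 1 (-0.53). Orc2 and Orc4 had -0.23 and -0.16, and the factors that load the helicase and restrain it, Cdc6, Cdt1 and Gmnn, had -0.56, -0.60 and -0.46, none of which passed. With equal totals these 5 genes had -1.48, -1.42, -1.79, -1.86 and -1.72 and passed as lower, beside the median of -1.42 over all genes. Cdt1 was at 34.5, 30.2 and 13.4 CPM in PC against 34.9 to 49.0 CPM in the germinal center sums, and the groups did not overlap.

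Of the elongation genes 11 of 20 fell in PC and 3 rose under TMM scaling. Catalytic subunits of the replicative polymerases had very few transcripts: Pola1 had 2 UMIs in all PC in G1 and Pold1 had 3. Pooled over cells, Pola1 was 19.7-fold lower than in DZ and LZ (exact 95% interval 5.44 to 163) and Pold1 23.4-fold lower (7.99 to 114), and both passed the test (adjusted p = 1.75e-09 and 2.93e-12). Pole, the catalytic subunit of polymerase epsilon, had 1 UMI and was 6.30-fold lower (1.11 to 251), a call lost without mouse 2 or 3 (fitted log2 -1.92 and -2.09). Rfc1, the large clamp loader subunit, was at 38.0, 24.7 and 13.4 CPM in PC against 209 to 264 CPM in the germinal center sums and fell by 3.24 ± 0.199 (adjusted p = 3.54e-13). Rpa3, Rfc3 and Rpa1 fell by 2.39, 1.93 and 1.84. Prim1 (-1.08) was lost without mouse 1 (-0.75) or 2 (-1.02), and Lig1 (-1.18) without mouse 2 (-0.54).

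Pold2, Rrm2, Fen1 and Prim2 rose in PC in G1 under TMM scaling, and none of them with equal totals. Pold2, the accessory subunit of polymerase delta, rose from 11.3 to 24.5 CPM in the 6 germinal center sums to 44.9, 66.0 and 89.1 CPM, by 1.79 ± 0.257 (adjusted p = 1.94e-06), while the catalytic Pold1 of the same enzyme fell. It had 13, 24 and 20 UMIs in 9, 16 and 12 cells of mice 1, 2 and 3. Rrm2 rose from 28.8 to 38.4 CPM to 79.4, 46.7 and 89.1 CPM, by 1.13 ± 0.162 (adjusted p = 2.16e-06), while Rrm1 of the same enzyme fell by 1.47. Its UMIs came from few cells: 23 UMIs in 6 of 30 cells in mouse 1, 14 of them in 1 cell, 17 UMIs in 10 of 41 cells in mouse 2, and 20 UMIs in 6 of 20 cells in mouse 3, 12 of them in 1 cell. Both calls, Pold2 and Rrm2, were lost when cells were thinned to 2000 UMIs, which left PC with few UMIs of each member and moved the median of all genes to -0.84. Fen1, the flap nuclease, rose by 0.65 to 51.8, 79.7 and 120 CPM, and was lost without mouse 2 (0.74) or 3 (0.30). Fen1 overlaps Tmem258 on the opposite strand. Prim2 rose by 1.34 on mouse 1 alone, where 16 UMIs came from 7 of 30 cells and 8 of them from 1 cell, and had 3 UMIs each in mice 2 and 3. Without mouse 1 its fold change was 0.19. With equal totals Rrm2 was at 32.03, 20.2 and 50.1 CPM in PC against 31.5 to 41.2 CPM in the germinal center sums, and the groups overlapped. Its fold change turned to -0.10 (adjusted p = 0.618). Pold2 was then at 18.1, 28.5 and 50.1 CPM against 12.3 to 26.7 CPM, also with overlap, at 0.54 (adjusted p = 0.0516). Fen1 was at 20.9, 34.5 and 67.6 CPM against 48.6 to 64.2 CPM and passed as lower (-0.58, adjusted p = 0.00989), and Prim2 had 0.08 (adjusted p = 0.832).

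Of the remaining classes, 1 of 6 helicase activation genes fell (Gins2, -1.79, lost without mouse 2 at -1.46) and 7 of 8 fork, nucleotide and chromatin genes fell. Hells had 3 UMIs and was 16.6-fold lower (5.67 to 80.8), and Atad5, Timeless and Chaf1a had 2 UMIs each and were 7.54-fold (2.06 to 62.6), 7.02-fold (1.92 to 58.3) and 8.32-fold lower (2.28 to 69.1). Tipin fell by 1.56 and Chaf1b, a subunit of the chromatin assembly factor, by 2.02. Intervals on these UMI counts cover counting error alone. Of the 32 calls in this comparison 16 held under every alternative run, among them all 6 helicase subunits.

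Some PC were called S, 6, 11 and 7 cells in the 3 mice, and they were compared with germinal center S cells at a minimum of 5 cells per sum. Of 49 genes 1 rose and 21 fell, against 31.8% of all genes in either direction, 13.1% higher and 18.7% lower, with a median of -0.45 against -0.28. The S call that picked these cells may itself rest on members, so their levels against G1 are described and not tested. With phases called without members 1.15% of PC were in S, against 17.7% by the authors' calls. Module transcripts were present in the cells called S by the authors. Mcm5 was at 261, 354 and 323 CPM in PC in S against 8.2 to 22.3 CPM in PC in G1, Cdc6 at 122, 114 and 106 CPM against 0 to 8.9 CPM, and Hells at 209, 282 and 208 CPM against 0 to 6.9 CPM. Licensing genes gave 7 falls of 15 and elongation genes 10 of 20.

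Pold1 fell by 1.79 ± 0.221, to 57.9, 31.0 and 41.5 CPM in PC against 137 to 147 CPM in DZ and LZ in S, and Pola1 by 1.78 ± 0.226, to 40.6, 41.3 and 32.3 CPM against 117 to 146 CPM. These 2 genes were thus low in PC in both phases, each without overlap with the germinal center sums. Rfc1, Rfc2, Rfc3, Prim1 and Lig1 fell by 1.502, 1.26, 1.199, 1.202 and 1.10. Mcm3, Mcm4, Mcm6 and Mcm7 fell by 0.81, 0.86, 0.76 and 0.56, and Mcm2 and Gmnn by 0.41 and 0.40, the last 3 being lost without mouse 2 (-0.48, -0.40 and -0.20) or 3 (-0.51, -0.26 and -0.44). Rrm2 rose by 0.81 ± 0.238 to 776, 671 and 822 CPM against 422 to 443 CPM, and it did not pass without mouse 3 (0.77, adjusted p = 0.0995) or with equal totals (0.60, adjusted p = 0.0526). With equal totals 0 of 49 genes rose and 30 fell, and the median of all genes was -0.49. The share of all genes called in that fit is not given here. Pcna, Hells, Gins2 and Fen1 had values of -0.02, -0.10, -0.05 and -0.11 and did not pass. Of the 22 calls 4 held under every alternative that could be fitted, those of Mcm3, Pola1, Pold1 and Rfc2. The calls also lost when 1 mouse was left out were Orc6 (-0.52 without mouse 2), Rfc5 (-0.44 and -0.25 without mouse 1 and 2), Pola2 (-0.46 and -0.50 without mouse 1 and 3), Pold3 (-0.84 and -0.61 without mouse 1 and 2), Atad5 (-0.20 without mouse 2), Chaf1a (-0.72 without mouse 2) and Chaf1b (-0.80 without mouse 3).

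**Figure D5:**
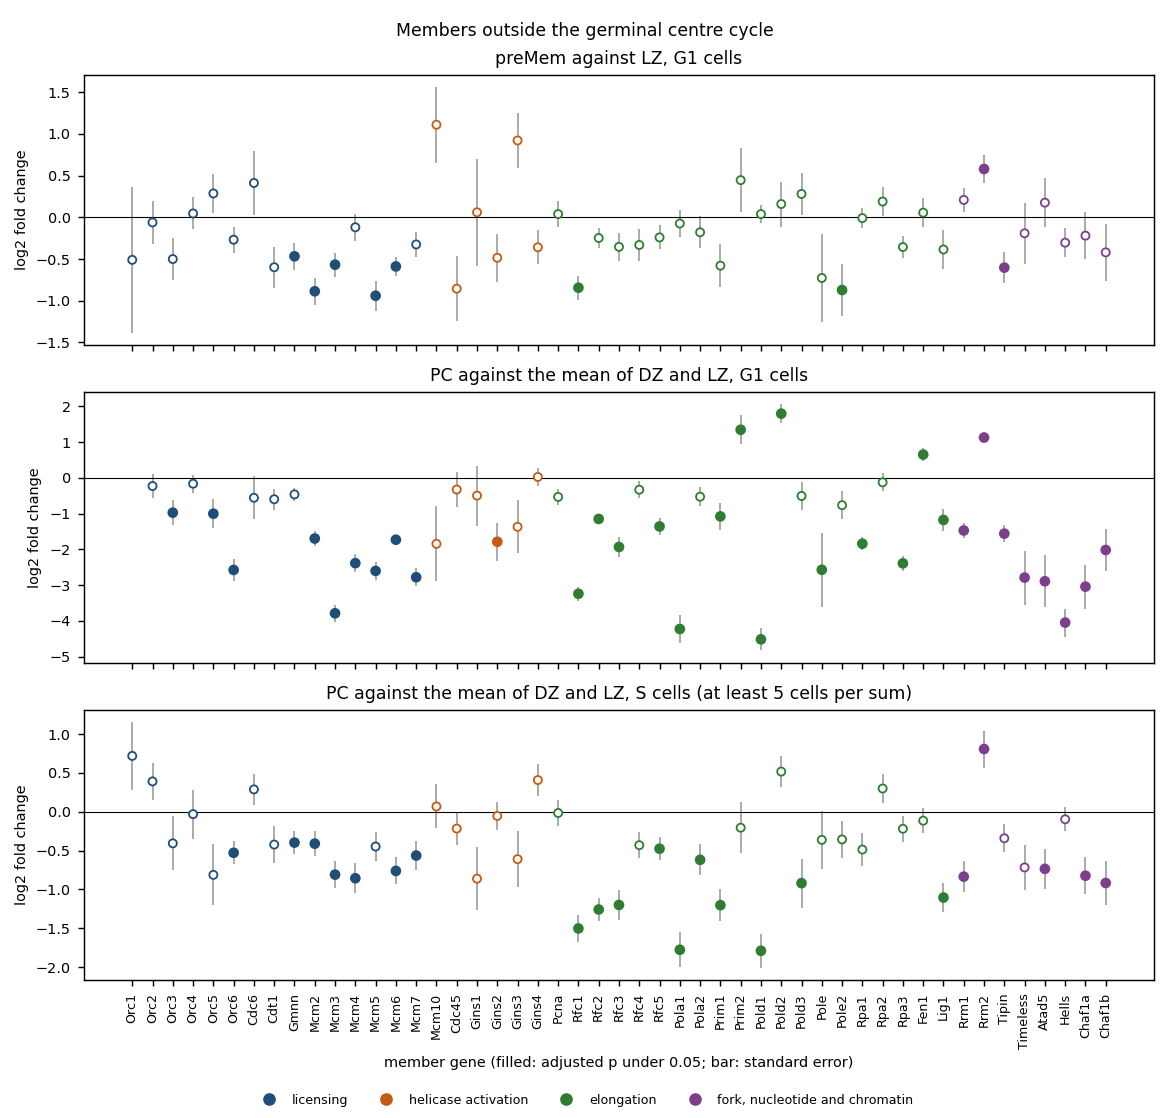
Log2 fold changes with standard errors of the 49 genes for preMem against LZ in G1 (top), PC against DZ and LZ in G1 (middle) and PC against DZ and LZ in S (bottom), coloured by class, filled where the adjusted p is under 0.05. Orc1 is left out of the middle panel because PC in G1 had 0 UMIs of it, Pola1 and Pold1 lie lowest there and again in the bottom panel, and Pold2, Prim2, Rrm2 and Fen1 lie above 0 in the middle panel, where with equal totals Rrm2 and Fen1 lie below 0.

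By the authors' calls 31.4% ± 1.44 of DZ cells were in S (SD, n = 3), 33.3% ± 1.86 of LZ cells, 65.1% ± 8.73 of LZtoDZ cells, 17.7% ± 4.22 of PC and 3.90% ± 2.44 of preMem cells. LZtoDZ was above LZ and preMem and PC were below it in all 3 mice, with p = 0.25 each by an exact permutation test that flips signs (two-sided), the smallest that 3 mice allow. With phases called without members the shares were 13.5% in DZ, 17.5% in LZ, 28.7% in LZtoDZ, 1.15% in PC and 1.11% in preMem. The prePC state had 14, 19 and 9 cells in G1 and 1 cell in S and entered no comparison. Its G1 sums held Mcm6 at 78.7, 105 and 48.0 CPM and Rrm2 at 28.6, 15.7 and 12.0 CPM.

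A list of 46 other replication genes, 45 of them in the matrix, covered further factors for origin firing, histone supply, nucleotides and cell cycle entry. In DZ against LZ 5 rose and 1 fell in S (8.99% of all genes were called), and 4 rose and 0 fell in G1 (12.4%), with Top1, which relaxes DNA ahead of the fork, at 0.76 and 0.84. Tyms, which makes thymidylate, fell by 0.36 in S. In LZtoDZ against LZ in S 14 rose and 6 fell (32.7%), among them Top1 (0.68), Nasp, a histone chaperone (0.63), and Pold4, the small subunit of polymerase delta (-1.01). In preMem 2 rose and 9 fell (19.5%), led by Ccne1 (1.42) and Cdca7 (-1.51). In PC in G1 4 rose and 28 fell (47%). Rnaseh2c, a subunit of ribonuclease H2, rose by 1.33 and Top1 by 0.98, while Cdc7, the kinase that fires origins, had 0 UMIs in PC and was at least 4.02-fold lower when 3 UMIs over the whole group are taken as the floor. In PC in S 5 rose and 18 fell (31.8%), with Ccne1 at 1.06 and Pold4 at -3.59. The comparisons of LZtoDZ, preMem and PC share LZ sums as their reference, so their calls are not independent of each other.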

How the data were processed

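Cells of 3 mice were captured in 12 libraries (transcripts, hashing antibodies and B cell receptors), and 1 matrix of UMI counts was deposited by the authors. Per the submitters' processing notes Cell Ranger and Seurat were used with build mm10. The sources used here do not give versions, cell filters, doublet treatment, the use of strand or the genes behind phase calls and scores. The score columns deposited by the authors were read only to find where the LZtoDZ, preMem and DZ states begin. Mouse, state and phase were taken as deposited. No doublet caller was run.

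Counts were summed per mouse, state and phase. CPM of members were computed from totals times TMM factors and CPM of markers from plain totals. Sums of at least 10 cells (34 sums in 14 groups, 18 residual degrees of freedom) entered 1 edgeR 4.0.16 quasi-likelihood fit in R 4.3.3 (limma 3.58.1) with TMM scaling, its filter on low counts (9374 genes) and the mouse as a block. Adjusted p-values are Benjamini-Hochberg over all genes, with a threshold of 0.05. LZtoDZ in G1 and PC in S had too few cells for this minimum, so they were fitted with sums of at least 5 cells (43 sums, 9406 genes). P-values rest on the spread between sums of the 3 mice that is left after group and mouse block. That spread is estimated over all groups of a fit and moderated across genes. Sums of the same mouse come from the same animal. Their deviations from the group means correlated with a median r of 0.0906 over 108 pairs, against -0.0461 over 216 pairs of different mice. The fit with at least 10 cells per sum was run on simulated data with known changes. Apart from those changes the compared groups shared the same profile there. The different composition of PC and the fit with at least 5 cells were therefore not covered, and no result here rests on the simulation.

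Every member is described by class, and of the other replication genes those with the largest called changes are named. The members, classes and lists were chosen with earlier results of these data known. Alternatives were DESeq2 1.42.0, other scaling, filters and cell minimums, leaving out each mouse, no block, leaving out immunoglobulin genes, the smaller barcode series or cells with at least 2 UMIs of other cell types (83 cells), phases called with scanpy 1.11.5 without members, thinning every cell to 2000 UMIs (43 shallower cells left out) and, chosen after seeing the data, equal totals with no TMM factors.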

Additional observations from a re-analysis of the deposited data

How the results depend on the processing

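The number of members called moved with the processing. Except for PC in G1 with equal totals, counts under alternatives, here and above, stand without the share of all genes called. They are therefore not read as changes of the module itself. For DZ against LZ in S (1 called) it was 0 without the filter on low counts, with at least 5 cells per sum, with phases called without members, after thinning and with equal totals, 0 to 0 when 1 mouse was left out, and 2 with DESeq2, 6 without immunoglobulin genes and 2 without the smaller barcode series. For DZ against LZ in G1 (2 called) it was 1 with at least 5 cells, 1 with phases called without members, 0 after thinning, 1 to 2 with 1 mouse left out, 5 with DESeq2, 4 with RLE scaling, 7 without immunoglobulin genes and 4 without the smaller series. For LZtoDZ against LZ in S (11) it was 7 with phases called without members, 6 after thinning and 7 to 9 with 1 mouse left out. For preMem (9) it was 5 with at least 5 cells, 20 with phases called without members, 2 after thinning and 4 to 8 with 1 mouse left out. For PC in G1 (32) it was 17 after thinning and 26 to 30 with 1 mouse left out. For LZtoDZ in G1 (4) it was 13 with phases called without members, 0 after thinning and 1 to 4 with 1 mouse left out, and for PC in S (22) it was 5 after thinning and 15 to 20. The interaction (0) gave 1 with DESeq2. The cause of these shifts was not tested. Without the replicate block, which pairs sums of the same mouse, the counts were 0 for DZ against LZ in S, 2 in G1, 8 for LZtoDZ in S, 9 for preMem, 32 for PC in G1, 0 for the interaction, 4 for LZtoDZ in G1 and 22 for PC in S.

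The level of the licensing to elongation ratio depends on which genes are summed. With means of log2(CPM + 1) it was -0.0527 in DZ in S, -0.16 in LZ in S, 0.0273 in LZtoDZ in S, 0.0888 in DZ in G1, -0.10 in LZ in G1, -0.22 in preMem and -0.30 in PC in G1. Without Mcm2 to Mcm7 it was -1.97, -2.08, -1.76, -2.04, -2.14, -2.09 and -1.70 in the same order. Without Gmnn it was -0.0774, -0.22, -0.0493, -0.39 and -0.56 in the first 5, and -1.09 in PC. Without the most abundant gene of each class it was -0.0939 in DZ in S, -0.17 in LZ in S, -0.00993 in LZtoDZ in S and -0.39 in DZ in G1. With phases called without members it was 0.10 in DZ in S, -0.0585 in LZ in S, -0.0866 in DZ in G1, -0.25 in LZ in G1 and -0.46 in PC in G1. The median S minus G1 difference was 1.69 in DZ and 1.64 in LZ with phases called without members, and 1.96 in DZ after thinning, and the shares in S were then 13.5%, 17.5%, 28.7%, 1.11% and 1.15% in DZ, LZ, LZtoDZ, preMem and PC with phases called without members.

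Genes called in the main fit or in the alternative changed sign in 9 cases. Sign changes of genes called in neither were not counted. In PC in G1 these were Prim2 (-4.89) and Fen1 (-0.47) after thinning. With equal totals they were Rrm2 (-0.10), Fen1 (-0.58) and Gins4 (-1.23). In PC in S it was Pola2 after thinning (0.00674). In LZtoDZ in G1 with phases called without members they were Rrm2 (1.01), Chaf1a (1.14) and Gins2 (0.93). A comparison of preMem with LZ in S could not be fitted, nor could PC without the smaller barcode series, nor PC in S with phases called without members. Sums of few cells limit LZtoDZ in G1 (5 to 7 cells and 49900 to 95727 UMIs per mouse), PC in S (6 to 11 cells and 190816 to 325203 UMIs) and PC in G1 (20 to 41 cells and 400508 to 843306 UMIs).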
